A study of Homo sapiens with 12 samples.

Results

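Integrin subunits were followed in 4 lung adenocarcinoma cell lines kept attached or detached for 1 day or 7 days. The 10 subunit genes ITGA2, ITGA3, ITGA5, ITGA6, ITGAV, ITGB1, ITGB4, ITGB5, ITGB6 and ITGB8 were taken by gene symbol from a table of 60715 genes, which lists 26 integrin subunits in all. The rule uses gene names and no measured value, but the members were chosen with earlier results of these data known. The 10 genes carried between 82.9% and 93.9% of the summed transcript level of the 26 subunits in each of the 12 libraries. That sum includes ITGAE, not a member, which held 5.34% to 33.9% of the alpha level on few counts for that level, as given below.

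The lines are HCC4006, LC-2/ad, NCI-H2009 and NCI-H2228, established human lung adenocarcinoma lines. As background, HCC4006 carries mutant EGFR, NCI-H2228 an ALK fusion and LC-2/ad a RET fusion. Each line gave 1 library per state. The attached state was ordinary culture with serum in RPMI-1640. For the detached states, cells were released with trypsin and held on plates with an ultra-low attachment surface until RNA was taken after 1 day or 7 days. The attached library of a line has no time label and served as the control for both times, so loss of attachment cannot be told apart from trypsin, replating or time in culture. The 4 lines were the replicates of each state. A p-value on the states therefore speaks of a difference shared by the lines, changes within a line carry no test, and whether the lines respond differently could not be tested.

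An integrin is a pair of an alpha chain and a beta chain that spans the plasma membrane, binds matrix proteins outside the cell and links them to actin or keratin filaments inside. ITGB1 is the shared beta chain of many receptors: with ITGA2 it binds collagen, with ITGA3 laminin and with ITGA5 fibronectin. ITGA6 with ITGB4 forms the laminin receptor of hemidesmosomes, which anchors epithelial cells to the basement membrane. ITGAV pairs with ITGB5, ITGB6 or ITGB8, which bind vitronectin or release active TGF-beta from its latent complex. In normal epithelium, loss of these contacts can trigger the form of cell death named anoikis.

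The members range from a subunit with nearly equal levels in the 4 lines, ITGB1, to one with very unequal levels, ITGB6, and the sequences just before the start of these 2 genes are shown because they also stand near opposite ends in base composition. Sequences are from RefSeq, build GRCh38.p14, for the outermost listed start. Of the 10 members, 8 were matched in that table; ITGA3 and ITGB4 were not. The ITGB1 window lies at chr10:32958233-32958480 on the minus strand, the ITGB6 window at chr2:160200314-160200522 on the minus strand. The gene annotation used for positions starts ITGB1 farther upstream, at base 33005792, so that this RefSeq window lies inside its gene interval. The printed bases are those before the start that lie outside annotated exons. Capitals mark matches, on either strand, to GGAATG, the word bound by TEAD factors, to TGANTCA, the word of AP-1, or to GGGCGG, the GC box.
ITGB1: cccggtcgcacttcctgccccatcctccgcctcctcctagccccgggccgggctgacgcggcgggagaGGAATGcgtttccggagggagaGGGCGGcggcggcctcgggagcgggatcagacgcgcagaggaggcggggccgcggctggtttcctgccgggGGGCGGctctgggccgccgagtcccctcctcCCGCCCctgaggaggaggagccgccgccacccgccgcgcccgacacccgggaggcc
ITGB6: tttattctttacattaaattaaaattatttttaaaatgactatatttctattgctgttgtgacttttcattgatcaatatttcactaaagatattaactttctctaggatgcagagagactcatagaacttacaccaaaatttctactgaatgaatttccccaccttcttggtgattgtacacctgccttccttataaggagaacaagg
Over the 250 bases before the start, ITGB1 held 32 CpG pairs at 78.4% G and C, and ITGB6 held 0 CpG pairs at 30.0% G and C. The median over 27305 promoters was 11, 9.26% held 32 or more, and 6.39% held 0. ITGB1 held 3 GC boxes and 1 TEAD word, and ITGB6 held none of the 3 words. The other 6 windows held between 8 (ITGA6) and 26 (ITGA2) CpG pairs. ITGB8 and ITGA5, the members next to ITGB6 in how unequal the lines were, held 21 and 12 CpG pairs at 71.2% and 70% G and C. A link between base composition and levels was not tested. The TEAD word occurred in 2 of the 8 windows, ITGA5 and ITGB1, and in 11.9% of all promoters. The AP-1 word occurred in 0 of the 8 windows and in 6.60% of all promoters. The GC box occurred in the windows of ITGA2, ITGA5, ITGB1, ITGB5 and ITGB8 and in 42.3% of all promoters. A match is a string of letters and no measure of binding.

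Libraries held between 31134420 and 41882024 estimated counts. Levels are given as TPM, a level per transcript length on a scale with the same total in each library, and changes as log2 differences of counts scaled by TMM (trimmed mean of M values) library factors. The epithelial markers EPCAM, CDH1, KRT8, KRT18 and KRT19 were above 0 in every library, with EPCAM between 204 and 1634 TPM. Of the lung adenocarcinoma markers, NKX2-1 was between 26.5 and 107 TPM and NAPSA between 1.90 and 705 TPM, while SFTPB was listed at 0 in 2 libraries and reached 32.8 TPM. The leukocyte markers PTPRC and CD3E were at no more than 0.834 and 0.140 TPM. The summed level of the leukocyte markers, carried mainly by CD68 and CD14, was 4.59 to 38.3 TPM in attached, 38.5 to 87.1 TPM in 1-day and 19.1 to 119 TPM in 7-day libraries. The endothelial markers summed to no more than 13.2 TPM. The fibroblast markers summed to 6.37 to 378 TPM in attached, 6.04 to 183 TPM in 1-day and 4.38 to 46.0 TPM in 7-day libraries. Within that list COL1A1 reached 347 TPM, LUM 43.4 TPM and FAP 33.6 TPM, and DCN was at 0 in 8 libraries and at no more than 0.448 TPM. The part of these genes in the results was not tested.

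After 1 day without attachment, 9 of the 10 subunits had a fitted log2 change below 0, against 49.5% of all genes. Their median was -0.29, against 0.01 over all genes. The lowest were ITGB6 and ITGA6, each at about 0.49 of its attached level, and ITGB8 alone was above 0. None of the 10 passed the edgeR quasi-likelihood test, in which 0.489% of 17395 genes passed at an adjusted p of 0.05. At an unadjusted p of 0.05, 2 of 10 passed, ITGA6 and ITGB6, as did 19.6% of all genes, so that this count is at the background share. These are bulk libraries, in which fewer cells of a kind and less RNA per cell cannot be told apart. DESeq2, run as an alternative, called these 2 members lower, in a test that called 11.4% of its genes.

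After 7 days, 8 of the 10 were below 0, against 47.3% of all genes. Their median was -0.30, against 0.03 over all genes. Again 0 of 10 passed in edgeR, where 0.103% of genes passed, and 0 of 10 in DESeq2, where 7.56% passed. ITGA5 and ITGB8, 2 of 10, had an unadjusted edgeR p under 0.05, as did 15.7% of all genes. Between the detached states the median was 0.18, against 0.02 over all genes. No member and 0% of all genes passed in edgeR there, and 0 of 10 members, against 9.78% of all genes, had an unadjusted p under 0.05. In the edgeR test for any difference among the 3 states, 0 of 10 passed, as did 0.0517% of genes, and ITGA6 (adjusted p = 0.231) and ITGB6 (adjusted p = 0.253) had the lowest values.

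Counting lines in place of fitting, ITGA6 and ITGB5 were lower in all 4 lines at day 1, as were 16.4% of all genes, and no member was higher in all 4, as were 16.8% of genes. ITGA5 and ITGA6 were lower in all 4 lines at day 7, as were 13.6% of genes, and none was higher in all 4, as were 14.4%. From day 1 to day 7, no member moved 1 way in all 4 lines, while 8.51% of genes were lower and 9.43% higher in all 4. A share of 2 in 10 is near these background shares. By line, the median over the members at day 1 was -0.40 in HCC4006, -0.03 in NCI-H2228, -0.32 in LC-2/ad and -0.58 in NCI-H2009. Members below 0 numbered 10, 5, 8 and 7 of the 10 in these lines, in that order.

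**Figure D1:**
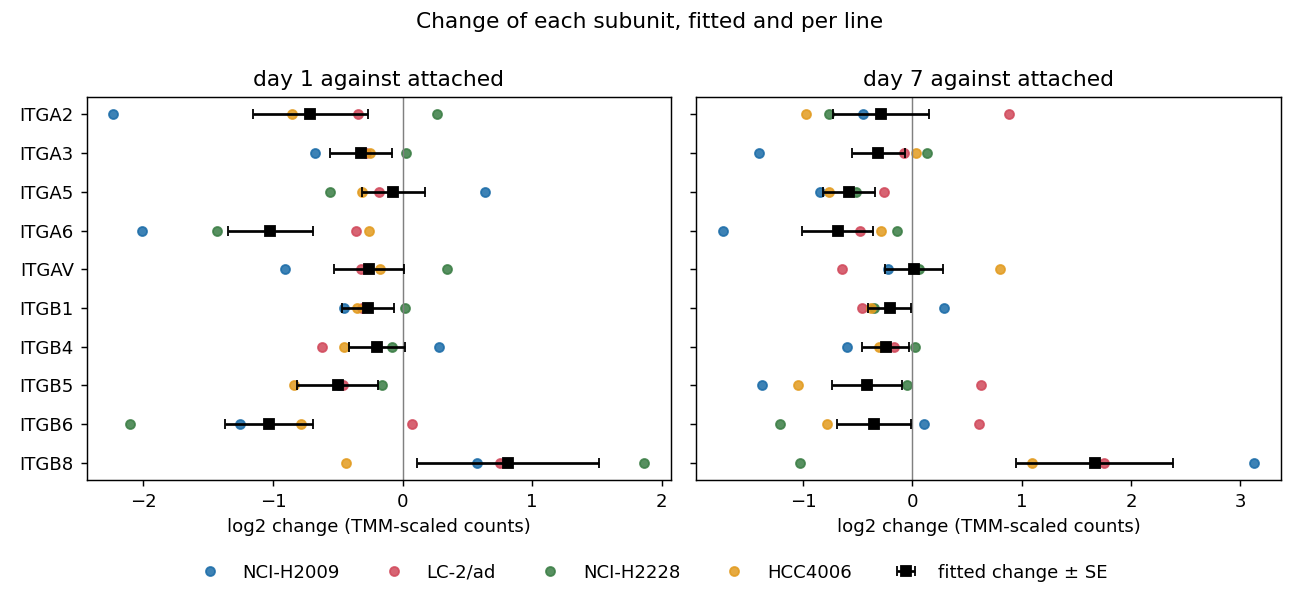
Log2 change of each integrin subunit against the attached state at day 1 (left) and day 7 (right), in TMM-scaled counts. Coloured points are the 4 lines, black squares the value fitted over the lines with its standard error (SE); among the squares, ITGA6 and ITGB6 lie farthest left at day 1 and ITGB8 farthest right at both times, and the points of most subunits fall on both sides of 0.

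ITGA6, the alpha chain of the hemidesmosomal laminin receptor (ENSG00000091409.15, chr2:172427354-172506459, plus strand; GRCh38), was one of the 2 members lowest at day 1. It stood at 88.6 TPM attached, 15.9 at day 1 and 44.4 at day 7 in NCI-H2009, and at 50.3, 15.8 and 43.1 TPM in NCI-H2228. In HCC4006 it stood at 66.8, 47.7 and 51.5 TPM, and in LC-2/ad at 13.6, 13.6 and 10.2 TPM. In TPM, NCI-H2009 and NCI-H2228 were thus far lower at day 1 and partly back at day 7. HCC4006 differed less, and LC-2/ad had the same TPM at day 1 as attached. The return in NCI-H2009 depended on the scale, with a log2 change from day 1 to day 7 of 1.48 in TPM and 0.27 in scaled counts. In NCI-H2228 these values were 1.45 and 1.29. Means were 54.8 ± 31.6, 23.3 ± 16.3 and 37.3 ± 18.5 TPM (SD, n = 4), and the ranges of the 3 states overlapped. The fitted day 1 change was -1.02 ± 0.33 (SE; edgeR adjusted p = 0.143; DESeq2 adjusted p = 0.037), with line values of -0.26 in HCC4006, -1.43 in NCI-H2228, -0.36 in LC-2/ad and -2.01 in NCI-H2009. Without NCI-H2009 the value was -0.64, and over all omissions of a line or library it ran from -1.28 to -0.63. At day 7 the change was -0.68 ± 0.33 (adjusted p = 0.345), and without NCI-H2009 it was -0.29.

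The scale matters for ITGA6. In NCI-H2009 its day 7 change was -0.996 in TPM but -1.73 in scaled counts, while its count per TPM moved by -0.46 relative to the median gene, outside the range from -0.18 to 0.21 that holds genes between the 5th and 95th percentiles. In LC-2/ad the day 1 change was 0.00 in TPM and -0.36 in counts. The median gene and these percentiles are over the 6962 genes with at least 5 TPM in every library. The source of the shift was not tested. Over the 10 members, 3 contrasts and 4 lines, 12 of 120 line changes had opposite signs in TPM and in scaled counts. In NCI-H2009 the median gene itself stood 0.36 lower at day 1 and 0.27 higher at day 7 in TPM than in scaled counts, on the log2 scale, so that TPM values of that line carry this shift.

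ITGB4, the long-tailed beta chain that pairs only with ITGA6 and docks to keratin filaments through plectin, had a flatter course in TPM. It stood at 126, 116 and 95.7 TPM in NCI-H2009, at 129.98, 82.5 and 120.0 TPM in LC-2/ad, at 97.4, 85.4 and 98.4 TPM in NCI-H2228 and at 47.5, 32.2 and 38.3 TPM in HCC4006. The day 1 change was -0.20 ± 0.21 (edgeR adjusted p = 0.648) and the day 7 change -0.25 ± 0.21 (adjusted p = 0.615). In NCI-H2009 the day 1 sign depended on the scale, with -0.12 in TPM and 0.28 in scaled counts. The gene overlaps GALK1, which lies on the opposite strand and stood at 18.5 to 92.2 TPM, and whether reads were counted by strand is not given in the sources used here.

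The ratio of ITGB4 to ITGA6 TPM showed the 2 courses together. It was 1.42, 7.28 and 2.15 in NCI-H2009 across attached, day 1 and day 7, and 1.94, 5.41 and 2.28 in NCI-H2228. In LC-2/ad it was 9.54, 6.04 and 11.8, and in HCC4006 0.711, 0.675 and 0.744. ITGB4 transcripts were thus the more abundant chain in every library of 3 lines and the less abundant in every library of HCC4006. The mean log2 difference of the ratio was 0.78 ± 1.39 (SD, n = 4 lines; exact sign-flip permutation test, two-sided p = 0.5) at day 1. At day 7 it was 0.30 ± 0.22 and above 0 in 4 of 4 lines in TPM (exact permutation p = 0.125, the smallest that 4 lines allow). In scaled counts 3 of 4 lines were above 0, with HCC4006 at -0.015 (exact permutation p = 0.25).

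**Figure D2:**
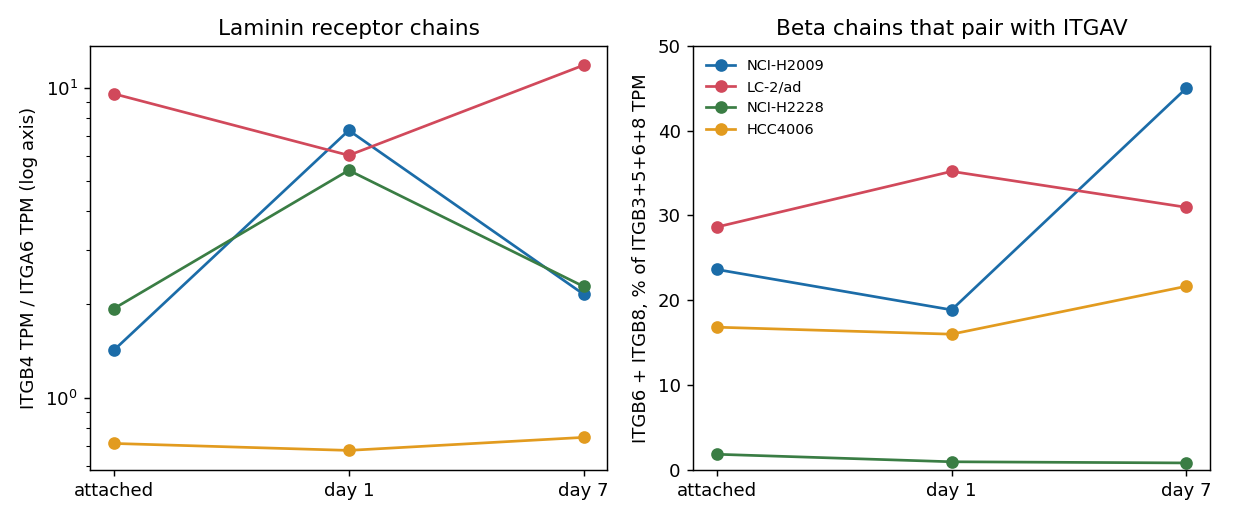
Left, TPM of ITGB4 divided by TPM of ITGA6 in each line across the states, on a log axis; right, ITGB6 and ITGB8 as a percent of the summed TPM of ITGB3, ITGB5, ITGB6 and ITGB8. The ratio peaks at day 1 in NCI-H2009 (7.28) and NCI-H2228 (5.41) and is at most 0.744 in HCC4006; the share is at most 1.82% in NCI-H2228 and reaches 45.0% in NCI-H2009 at day 7.

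ITGA3, the alpha chain of the epithelial laminin receptor with ITGB1, had the highest mean TPM of the alpha members, 111 TPM over the 12 libraries. It stood at 169, 81.8 and 82.5 TPM in NCI-H2009, at 108, 84.5 and 104 TPM in LC-2/ad, at 179.9, 166 and 189 TPM in NCI-H2228 and at 60.5, 45.1 and 59.96 TPM in HCC4006. Only NCI-H2009 had a large difference from its attached library at day 7, -1.40 in scaled counts, while the other lines lay between -0.08 and 0.13. The fitted changes were -0.32 ± 0.24 at day 1 (edgeR adjusted p = 0.494) and -0.31 ± 0.24 at day 7 (adjusted p = 0.569). Without NCI-H2009 the day 7 value was 0.03.

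ITGB1, the common partner of ITGA2, ITGA3 and ITGA5 (ENSG00000150093.19, chr10:32900318-33005792, minus strand), was the most abundant subunit in every library. It stood at 281, 163 and 379.6 TPM in NCI-H2009, at 397, 371 and 304 TPM in LC-2/ad, at 302, 281 and 243 TPM in NCI-H2228 and at 481, 329.9 and 328 TPM in HCC4006. Means were 365 ± 92.1, 286 ± 90.0 and 314 ± 56.8 TPM (SD, n = 4) in the 3 states, with overlapping ranges. The fitted changes were -0.27 ± 0.20 at day 1 and -0.21 ± 0.20 at day 7 (edgeR adjusted p = 0.489 and 0.649). At day 7 NCI-H2009 was above its attached library, by 0.29, and the other 3 lines were below theirs, at -0.35 to -0.46.

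ITGA5, the alpha chain of the fibronectin receptor, differed most between lines among the alpha members. It stood at 73.3, 88.2 and 49.5 TPM in NCI-H2009, at 63.5, 39.0 and 43.9 TPM in NCI-H2228, at 23.3, 17.4 and 12.8 TPM in HCC4006 and at 6.74, 6.01 and 7.03 TPM in LC-2/ad. At day 1 the lines went both ways, 0.64 in NCI-H2009 and -0.56 in NCI-H2228, and the fitted change was -0.07 ± 0.24 (edgeR adjusted p = 0.895). At day 7 the 4 lines were lower in scaled counts, at -0.77 in HCC4006, -0.52 in NCI-H2228, -0.26 in LC-2/ad and -0.85 in NCI-H2009. That change was -0.58 ± 0.24 (edgeR adjusted p = 0.284). In TPM, LC-2/ad was at 0.06, so that 3 of 4 lines were lower on that scale.

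ITGA2, the collagen-binding alpha chain, had its lowest value at day 1 in NCI-H2009. It stood at 13.0, 2.02 and 11.6 TPM there, at 8.61, 6.92 and 16.4 TPM in LC-2/ad, at 24.97, 28.6 and 14.7 TPM in NCI-H2228 and at 51.3, 27.1 and 25.1 TPM in HCC4006. The lines did not move together: from day 1 to day 7 NCI-H2009 and LC-2/ad were higher by 1.78 and 1.23 and NCI-H2228 was lower, at -1.03. The fitted changes were -0.71 ± 0.44 at day 1 (edgeR adjusted p = 0.401) and -0.29 ± 0.44 at day 7 (adjusted p = 0.798). The day 1 value was -0.30 without NCI-H2009 and -1.14 without NCI-H2228.

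**Figure D3:**
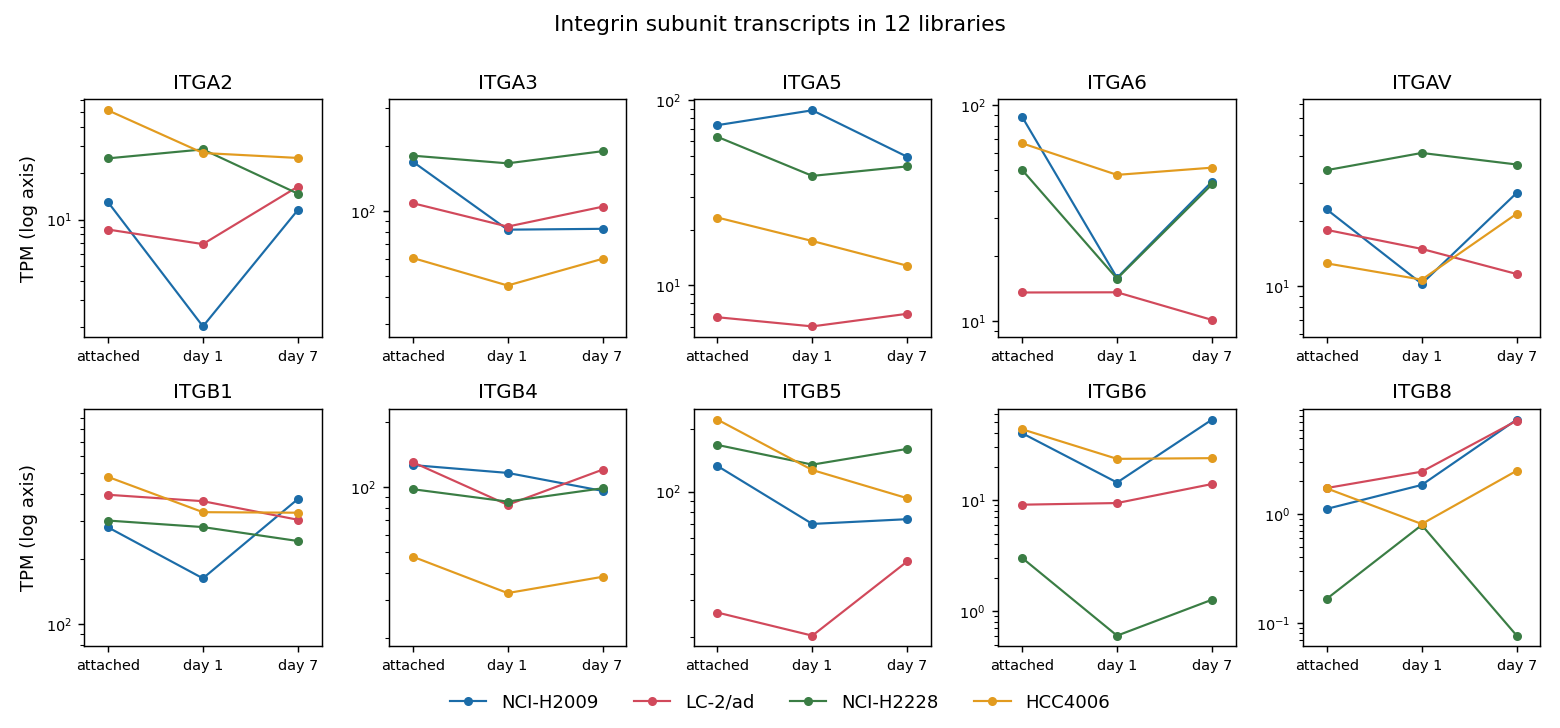
TPM of the 10 integrin subunits in the 12 libraries, on log axes, with 1 line of points per cell line across attached, day 1 and day 7. LC-2/ad lies below the other lines in ITGA5 (6.01 to 7.03 TPM) and NCI-H2228 in ITGB6 (0.601 to 3.02 TPM). NCI-H2009 overlaps NCI-H2228 in ITGA5 and HCC4006 in ITGB6, and the remaining line of each lies between without overlap. ITGA6 dips at day 1 in NCI-H2009 and NCI-H2228, and ITGB8 is highest at day 7 in 3 lines.

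ITGAV, the alpha chain of vitronectin receptors and of the integrins that activate TGF-beta, had the smallest fitted day 7 change of the members. It stood at 22.7, 10.3 and 27.1 TPM in NCI-H2009, at 18.3, 14.9 and 11.4 TPM in LC-2/ad, at 34.5, 41.5 and 36.7 TPM in NCI-H2228 and at 12.8, 10.8 and 21.7 TPM in HCC4006. The changes were -0.26 ± 0.27 at day 1 (edgeR adjusted p = 0.626) and 0.01 ± 0.27 at day 7 (adjusted p = 0.988), and at day 7 the lines ran from -0.65 in LC-2/ad to 0.80 in HCC4006.

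ITGB5, the vitronectin-binding partner of ITGAV, was the most abundant of ITGB5, ITGB6 and ITGB8 in every library. It stood at 133, 69.9 and 73.7 TPM in NCI-H2009, at 168, 135 and 161 TPM in NCI-H2228, at 222, 127 and 92.9 TPM in HCC4006 and at 26.2, 20.3 and 46.2 TPM in LC-2/ad. All 4 lines were lower at day 1, at -0.84 in HCC4006, -0.16 in NCI-H2228, -0.46 in LC-2/ad and -0.49 in NCI-H2009. The day 1 change was -0.50 ± 0.31 (edgeR adjusted p = 0.402). At day 7 LC-2/ad stood above its attached level, at 0.63, and NCI-H2009 and HCC4006 below, at -1.38 and -1.05, with a fitted change of -0.41 ± 0.32 (adjusted p = 0.566). That value was -0.13 without NCI-H2009, -0.19 without HCC4006 and -0.81 without LC-2/ad.

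ITGB6, an epithelial chain that with ITGAV binds latent TGF-beta (ENSG00000115221.12, chr2:160099667-160200313, minus strand), was the other member lowest at day 1. It stood at 40.1, 14.4 and 53.1 TPM in NCI-H2009, at 43.4, 23.5 and 23.9 TPM in HCC4006, at 9.09, 9.40 and 14.0 TPM in LC-2/ad and at 3.02, 0.601 and 1.27 TPM in NCI-H2228. The NCI-H2228 day 1 value rested on 64 estimated counts. At day 1 it was lower in 3 lines, at -1.25 in NCI-H2009, -2.10 in NCI-H2228 and -0.78 in HCC4006, and at 0.08 in LC-2/ad. The fitted day 1 change was -1.03 ± 0.34 (edgeR adjusted p = 0.151; DESeq2 adjusted p = 0.041), and without NCI-H2228 it was -0.66. By day 7 the change was -0.35 ± 0.34 (edgeR adjusted p = 0.653): NCI-H2009 was above its attached level again, and HCC4006 had stayed at its day 1 level.

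ITGB8, a TGF-beta-activating partner of ITGAV best known from neural and immune cells (ENSG00000105855.10, chr7:20330702-20415754, plus strand), was the least abundant member and the only one with a fitted change above 0 at day 1. It stood at 1.12, 1.86 and 7.42 TPM in NCI-H2009, at 1.74, 2.46 and 7.24 TPM in LC-2/ad, at 1.72, 0.811 and 2.51 TPM in HCC4006 and at 0.166, 0.793 and 0.0760 TPM in NCI-H2228. NCI-H2009, LC-2/ad and HCC4006 had their highest value at day 7 and NCI-H2228 its lowest there, on 15 estimated counts. The day 7 change was 1.67 ± 0.72 (edgeR adjusted p = 0.299), with line values of 1.10 in HCC4006, -1.03 in NCI-H2228, 1.75 in LC-2/ad and 3.12 in NCI-H2009. Without the 7-day library of NCI-H2009 the day 7 value was 0.96, and without that of NCI-H2228 it was 2.20. Day 1 gave 0.81 ± 0.70 (adjusted p = 0.554). Its count per TPM moved beyond the percentiles named above in 10 of 12 line changes. Those percentiles come from better expressed genes and ITGB8 is not among them. The part of its low counts in these moves was not tested. The lncRNA AC004130.2 overlaps ITGB8 on the opposite strand and stood higher at day 7 than attached in 4 of 4 lines, going from 2.99 to 7.635 TPM in NCI-H2009 and from 8.81 to 26.5 TPM in HCC4006 between attached and day 7. These lines include NCI-H2228, where ITGB8 itself was lower at day 7 than attached. The overlap is one of gene intervals, and whether the 2 genes share exon bases was not tested. In bases that both genes share, reads cannot be told apart without strand. Whether reads of either gene were counted for the other was not tested.

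The share of ITGB6 and ITGB8 among the 4 beta chains ITGB3, ITGB5, ITGB6 and ITGB8 gave the make-up of ITGAV partners. It was 23.6%, 18.9% and 45.0% in NCI-H2009 across the states, 28.6%, 35.2% and 30.96% in LC-2/ad, 16.8%, 16.0% and 21.6% in HCC4006 and 1.82%, 0.931% and 0.793% in NCI-H2228. The mean log2 difference of this share was -0.27 ± 0.53 at day 1 and 0.05 ± 0.90 at day 7 (SD, n = 4; exact sign-flip permutation p = 0.375 and 0.875). NCI-H2228 lay below every library of the other 3 lines in all states. ITGB1 also pairs with ITGAV and was left out of the share.

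Levels differed between the lines. In the edgeR test of the cell line term, 8 of 10 members passed, against 61.2% of all genes. ITGB1 (adjusted p = 0.143) and ITGB8 (adjusted p = 0.053) did not pass. The labels do not say that the 3 libraries of a line came from separate cultures, so this test reads only the spread between them. Without HCC4006, 5 of 10 members passed, against 43.8% of all genes in that fit. The highest line mean over the lowest was 22.0 for ITGB6, 11.1 for ITGB8, 10.7 for ITGA5, 4.99 for ITGB5, 4.43 for ITGA6, 3.89 for ITGA2, 3.23 for ITGA3, 2.86 for ITGB4, 2.53 for ITGAV and 1.38 for ITGB1.

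In ITGB6 the order was NCI-H2009 and HCC4006, which overlapped, then LC-2/ad, then NCI-H2228, with the last 2 clear of each other and of the lines above. ITGA5 ran from NCI-H2009 and NCI-H2228, which overlapped, to HCC4006 and then LC-2/ad, again without overlap. LC-2/ad was below every library of the other lines in ITGB5 and ITGA6 as well. HCC4006 was below them in ITGB4 and ITGA3. NCI-H2228 was above them in ITGAV and below them in ITGB8, at no more than 0.793 TPM against a lowest value of 0.811 TPM in HCC4006. The share of all genes that set a line apart in this way was not computed, and 61.2% of all genes passed the cell line term. In ITGA2, neighbouring lines overlapped throughout, with line means from 34.5 TPM in HCC4006 to 8.86 TPM in NCI-H2009. For ITGB1 the NCI-H2009 libraries alone spanned 163 to 379.6 TPM, overlapping all other lines.

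**Figure D4:**
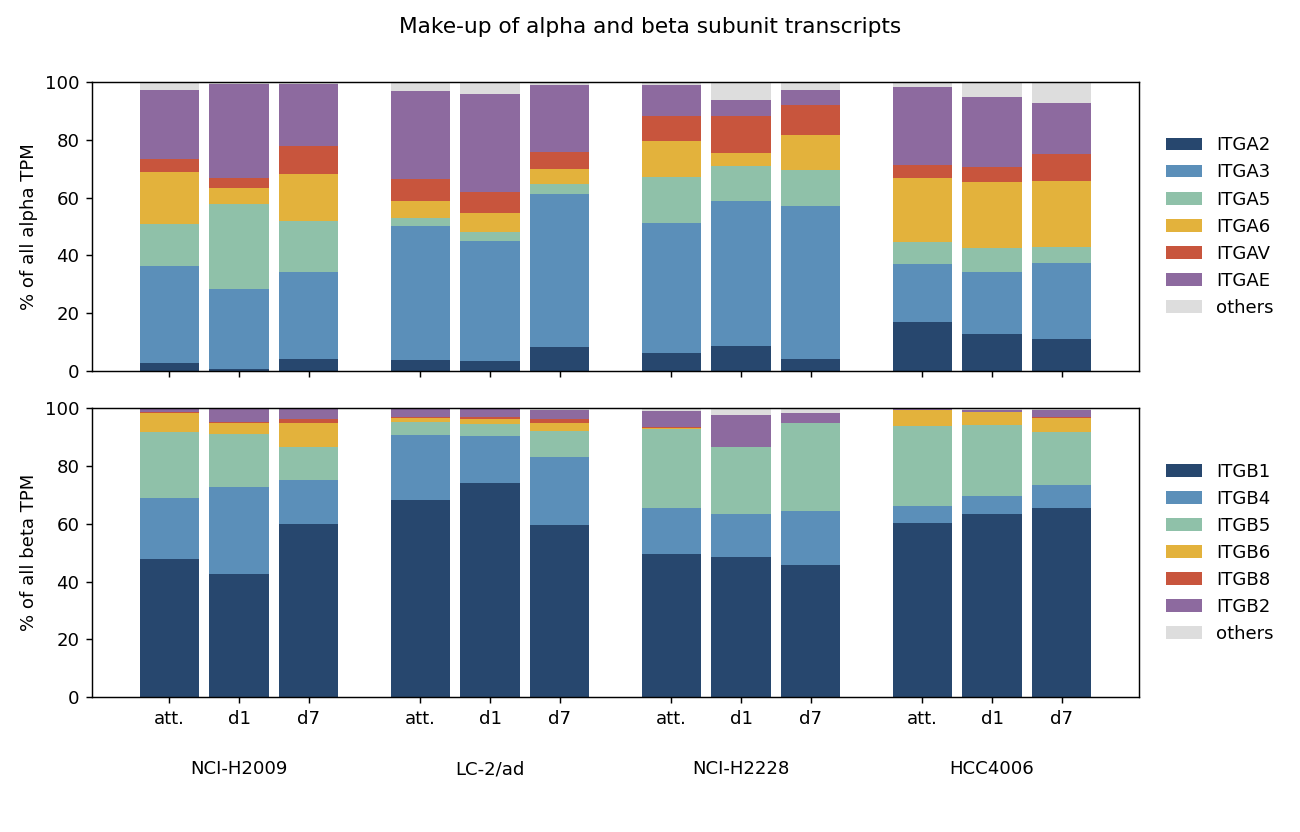
Percent of the summed TPM of all alpha subunits (top) and all beta subunits (bottom) held by each subunit in the 12 libraries. ITGB1 fills 42.6% to 74.1% of the beta bars; ITGA3 and ITGAE are wide in most alpha bars, ITGA5 and ITGB5 are thin in LC-2/ad, and ITGB4 is thin in HCC4006. The ITGAE parts rest on only 183 to 1353 estimated counts per library.

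The make-up of the subunit pool differed between lines in the same way. ITGB1 held 42.6% to 74.1% of beta TPM, and ITGA3 held 20.1% to 53.1% of alpha TPM. Alpha TPM here includes ITGAE at 5.34% to 33.9%, with the low count per TPM given below, and the alpha shares of the members depend on it. ITGB4 held 14.7% to 30.3% of beta TPM in the other 3 lines and 5.95% to 7.67% in HCC4006. ITGB5 held 4.05% to 9.05% in LC-2/ad and 11.6% to 30.4% elsewhere. ITGA2 held 11.1% to 17.0% of alpha TPM in HCC4006 and no more than 8.67% elsewhere. The 5 beta members summed to 1.54 to 3.85 times the 5 alpha members.

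The summed TPM of the 5 alpha members was lower at day 1 in 4 of 4 lines, with a mean log2 difference of -0.50 ± 0.28 (SD; exact sign-flip permutation p = 0.125, the smallest possible). The sum of the 5 beta members was also lower in 4 of 4 lines, at -0.42 ± 0.26 (exact permutation p = 0.125). At day 7 the alpha sum was at -0.32 ± 0.32 and the beta sum at -0.26 ± 0.33 (exact permutation p = 0.125 and 0.25), with NCI-H2009 at 0.07 in the beta sum and below 0 in the alpha sum. In scaled counts the day 1 values were -0.33 and -0.30. The median gene also stood lower in day 1 TPM than in scaled counts in every line. This gap was largest in NCI-H2009 (-0.36) and smallest in LC-2/ad (-0.01). The median gene of NCI-H2228 changed by -0.17 in TPM at day 1, beside -0.28 for its alpha sum and -0.18 for its beta sum. The share of all genes lower in TPM in 4 of 4 lines was not computed. With 4 lines none of the differences in these sums could pass 0.05.

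Partner chains were compared over the states. After removing each line's mean, the correlation of log2 counts over the 12 libraries was 0.19 between ITGA6 and ITGB4, and ITGB4 ranked 4150 among 9923 genes by likeness to ITGA6. With ITGB1 the values were 0.62 for ITGA2, -0.24 for ITGA3 and -0.30 for ITGA5, and with ITGAV -0.29 for ITGB5, -0.01 for ITGB6 and 0.22 for ITGB8. The closest pairs of members were ITGA5 with ITGB4 (0.76) and ITGB4 with ITGB5 (0.75). The 12 libraries are 4 lines in 3 states, so these values are descriptions only.

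By the same measure, nearest to ITGA6 were FARSB (r = 0.99) and BCCIP (0.98), to ITGA2 SYT12 (0.98) and RASSF8 (0.94), to ITGA3 MRPS17 (0.97) and ARID1A (0.95), and to ITGA5 PSMB2 (0.98) and MORF4L2 (0.96). NOTCH2 (0.93) and RBMXL1 (0.92) were nearest to ITGAV, NAA40 (0.92) and KCTD3 (0.91) to ITGB1, and MMD (0.92) and CDC25B (0.92) to ITGB4. ITGB5 was nearest to ACAA1 (0.98) and GTPBP6 (0.98), ITGB6 to AEN (0.97) and PHLDA1 (0.94), and ITGB8 to PDP1 (0.98) and SGSH (0.96). The highest of 9923 values over 12 libraries is high by selection.

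Of the other 16 subunits, 13 passed the filter on low counts and 0 passed the edgeR test in either detached state. ITGAE, the alpha chain that lymphocytes use to hold on to E-cadherin, had the highest level of them, at 78.9 ± 32.04 TPM (SD, n = 4) attached, 58.8 at day 1 and 41.0 at day 7. It was lower in 4 of 4 lines at day 7 in scaled counts (-0.98 ± 0.25; edgeR adjusted p = 0.135; DESeq2 adjusted p = 0.007). Its TPM rested on only 183 to 1353 estimated counts per library, and its count per TPM was 0.171 to 0.178 of that of the median gene of its listed length, against medians of 1.06 to 1.63 for the members. ITGA4, a fibronectin and VCAM1 receptor chain, stood at 3.92 TPM attached, 0.529 at day 1 and 0.198 at day 7 on average, with 13.1, 1.47 and 0.725 TPM in NCI-H2009. Its day 7 change was -4.03 ± 0.83 (edgeR adjusted p = 0.104; DESeq2 adjusted p = 9.2e-05). ITGAX, the leukocyte complement receptor chain, was at 1.80 ± 0.63 on the log2 scale at day 1 (edgeR adjusted p = 0.174) and at no more than 5.29 TPM.

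Laminins are the ligands of the receptors built from ITGA3 and ITGA6. Of 11 chains tested, 0 passed at day 1 and 1 at day 7, LAMB1, which fell from 27.8 TPM attached to 7.99 TPM at day 7 and stood at 11.2 TPM at day 1 (day 7 log2 change -1.79 ± 0.25; edgeR adjusted p = 0.047). LAMA4 stood at -0.97 ± 0.27 at day 7 (adjusted p = 0.158), and LAMB2 at 1.202 ± 0.42 at day 1 (adjusted p = 0.162). Among 14 other ligands 12 were tested. THBS1, a thrombospondin, fell from 106 to 20.6 and 13.5 TPM and passed at both times (-2.16 ± 0.36 and -2.74 ± 0.37; edgeR adjusted p = 0.0496 and 0.047). COL4A2, a basement membrane collagen, fell from 85.4 to 24.8 TPM at day 7 (-1.55 ± 0.22; adjusted p = 0.047). SPP1, osteopontin, stood at 1.44 ± 0.33 at day 1 (adjusted p = 0.077) and FN1, fibronectin, at 0.95 ± 0.23 at day 7 (adjusted p = 0.134). These calls sat at the threshold: 17 to 20 of 24 alternative settings lost each of the 4, among them RLE library factors and the omission of any single line. The size of the changes held, with log2 values over these settings from -2.46 to -1.95 for THBS1 at day 1 and, at day 7, from -3.19 to -2.46 for THBS1, -2.07 to -1.56 for LAMB1 and -1.74 to -1.29 for COL4A2.

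The cargo of ITGB6 and ITGB8, the latent TGF-beta complex, had 5 of 6 genes tested and 0 called in either state. TGFB2 stood at -1.83 ± 0.50 and -2.39 ± 0.52 at days 1 and 7 (edgeR adjusted p = 0.105 and 0.111), and LTBP3, which tethers the complex to matrix, at 0.83 ± 0.22 at day 1 (adjusted p = 0.095). Among 15 tested of 16 activators and adaptors on the cytoplasmic side, 0 were called, 12 were below 0 at day 1 and 13 at day 7. Over all genes, 49.5% were below 0 at day 1 and 47.3% at day 7. The median of the 15 was -0.48 at day 1, against 0.01 over all genes. Lower in 4 of 4 lines at day 1 were 10 of the 15, against 16.4% of all genes. Among the 10 were PXN (-0.76 ± 0.16; edgeR adjusted p = 0.068), LIMS1 (-0.54 ± 0.18; adjusted p = 0.149) and the kindlin FERMT1 (-1.25 ± 0.39; adjusted p = 0.136).

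The inhibitors of activation numbered 4 tested and 0 called, with FLNA at -1.13 ± 0.39 at day 1 (edgeR adjusted p = 0.160) and ITGB1BP1 at -0.45 ± 0.20 at day 7 (adjusted p = 0.307). Of the 4 hemidesmosome partners of ITGA6 and ITGB4, 0 were called and 4 were below 0 at day 7, as were 47.3% of all genes. PLEC, the plectin that binds ITGB4, was at -0.73 ± 0.21 (edgeR adjusted p = 0.166) and CD151 at -0.44 ± 0.24 (adjusted p = 0.406). The 6 tetraspanins and lateral partners were all above 0 at day 1, when 49.5% of all genes were below 0. Of the 6, 4 were higher in 4 of 4 lines, against 16.8% of all genes. The edgeR test called 0 of them, with BSG at 0.34 ± 0.17 and CD81 at 0.33 ± 0.17 (adjusted p = 0.299 and 0.310). Of 9 genes of integrin recycling 0 were called. RAB25, which carries integrins back to the surface, stood at 0.74 ± 0.20 at day 1 (adjusted p = 0.101), and RAB11FIP1 at 1.00 ± 0.29 at day 7 (adjusted p = 0.168).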

How the data were processed

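RNA for 12 libraries, 4 lung adenocarcinoma lines in 3 states, was purified with RNeasy and made into libraries with SMART-Seq v4 PLUS, per the labels' protocols. The authors deposited 1 table with TPM and estimated counts per gene and library, on GRCh38 per the submitters' processing notes; the sources used here name no aligner, quantifier, annotation or strand setting. Of the positive estimated counts as deposited, 31.5% were not whole, and they were rounded for the tests. Library totals were 31134420 to 41882024 estimated counts; intervals were not needed for shares, and low counts are given beside the values that rest on them. No column was left unmapped (0).

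Genes were kept by filterByExpr (17395 genes), scaled by TMM and fitted in edgeR 4.0.16 (R 4.3.3) with a robust quasi-likelihood model of state and cell line (6 residual degrees of freedom, biological coefficient of variation 38.7%). P-values were adjusted over all genes by Benjamini-Hochberg with a threshold of 0.05. The pairing of states comes from the shared cell line. The SE is derived from the F statistic and restates the test. Within a line, 2 log2 CPM values (prior count 2) were subtracted. DESeq2 1.42.0, limma 3.58.1 on log2 TPM, RLE factors, other filters, no block, only the 2 states compared, and leaving out each line or library were alternatives. The fits were tested on simulated data.

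Members and gene lists were chosen with earlier results of these data known. All 10 members are named; of each list, the genes called and up to 4 with the smallest unadjusted p at day 1 or day 7 are named. Likeness is the correlation of line-centred log2 CPM with protein-coding genes of mean TPM of at least 5. Ratios and sums were compared by exact sign-flip permutation over the 4 lines. Promoters are from RefSeq GRCh38.p14.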

Additional observations from a re-analysis of the deposited data

Results flagged for a closer look

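Of 60 groups of 4 values tested for a value far from the other 3, 4 held one, and chance alone marks about 1 group in 20. ITGA3 at day 7 was far lower in NCI-H2009 (log2 change -1.40) than in the other 3 lines. ITGB1 at day 7 was far higher in NCI-H2009 (0.29), the only line above its attached level. Among the 1-day libraries, ITGA6 was far higher in HCC4006 (47.7 TPM) and ITGAV in NCI-H2228 (41.5 TPM) than in the others.

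Opposite changes of at least 1 on the log2 scale were seen between lines for 2 members; with 1 library per line and state these differences were not tested. ITGA2 from day 1 to day 7 was at 1.78 in NCI-H2009 and -1.03 in NCI-H2228. ITGB8 at day 7 against attached was at 3.12 in NCI-H2009 and -1.03 in NCI-H2228, and from day 1 to day 7 at 2.55 and -2.89. The ITGB8 values of NCI-H2228 rest on 15 to 112 estimated counts.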

How the results depend on the processing

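With DESeq2, 2 members passed at day 1 in place of 0, and over all genes 1709 passed in place of 85 at day 1 and 1162 in place of 18 at day 7; RLE factors gave 2 and 6, no filter 265 and 114, and no replicate block 0 and 0. Leaving out any line or library gave 0 to 6 genes at day 1 and 0 to 69 at day 7; limma on TPM with a pseudocount of 1 gave 266 and 53. The cell line term called 5 to 10 members when a line or library was left out, and 43.8% to 63.3% of all genes. The median day 7 change ran from -0.50 (without LC-2/ad) to -0.19, and the day 7 log2 difference in the share of ITGB6 and ITGB8 from -0.24 to 0.47.

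No state change of a member passed in edgeR, and some changed sign. Without the replicate block, which pairs the states by line, the ITGA5 day 1 change was 0.11, and from day 1 to day 7 ITGA2 was at -0.044, ITGA3 at -0.0094 and ITGB5 at -0.094. With only the 2 states compared, ITGAV was at -0.0054 at day 7 and ITGA3 at -0.033 from day 1 to day 7. With limma on log2 TPM, ITGB4 was at 0.18 from day 1 to day 7 with either pseudocount. Leaving out a line or library gave these ranges: at day 1, ITGA5 -0.40 to 0.095 and ITGB8 -0.067 to 1.25; at day 7, ITGA2 -0.69 to 0.014, ITGA3 -0.46 to 0.028, ITGAV -0.28 to 0.22 and ITGB6 -0.64 to 0.016; from day 1 to day 7, ITGA3 -0.11 to 0.26, ITGAV -0.012 to 0.49, ITGB1 -0.18 to 0.21, ITGB4 -0.21 to 0.23 and ITGB5 -0.31 to 0.37. The cause was not tested. The ligand alternatives were chosen after seeing the data. One library per line and state sets the limit on all state results.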
